A study of Mus musculus with 32 samples.

Results

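Cytosolic RNA of mouse embryonic fibroblasts under prolonged endoplasmic reticulum (ER) stress was compared with and without a late block of the ER stress kinase PERK. The comparison was taken by sample title, 4 libraries of the group Tg16+PERKi against 4 of the group Tg16, together 8 of the 32 libraries of the study, and it covered every gene with enough counts. Fibroblasts of the Tg16+PERKi group were kept in thapsigargin for 16 h and received a PERK inhibitor for the last 4 h, and fibroblasts of the Tg16 group were kept in thapsigargin for 16 h without it. Thapsigargin blocks the pump that loads calcium into the ER, so both groups share that treatment, and untreated control fibroblasts (0 h) are given as a further level. The study also holds fibroblasts after 1 h of thapsigargin and, for each of its 4 conditions, RNA from mRNAs with more than 4 ribosomes. The sources used here do not name the inhibitor, state either drug's dose or the strain behind the fibroblasts, or say whether the Tg16 group received solvent.

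PERK is a kinase of the ER membrane that is switched on by unfolded proteins and phosphorylates the translation factor eIF2. General initiation then slows, while a few mRNAs with upstream reading frames, Atf4 among them, are translated more, and the transcription factors ATF4 and CHOP switch on genes for amino acid supply, tRNA charging, redox defence and, under lasting stress, cell death. The kinase-nuclease IRE1, which splices the Xbp1 mRNA, and the membrane-bound transcription factor ATF6 form the other branches of the unfolded protein response and drive genes for ER chaperones and for the disposal of misfolded proteins.

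The cytosolic libraries held 33.5 to 34.9 M counts in Tg16+PERKi and 29.5 to 35.0 M in Tg16, where M stands for 1000000. Levels are given in CPM, counts per 1000000 of a library's total after TMM scaling, and they are compared between libraries and not between genes, since they are not divided by transcript length. Of 20234 genes in the table, 12366 had enough counts to be tested, and 3592 were at 0 in all 16 cytosolic libraries. The leading principal component separated the groups and held 84.2% of the variance of the 8 libraries; the next held 7.26% and set replicate 1 of Tg16 apart from its group. Fibroblast markers were high, with summed levels of 7093 to 7607 CPM in Tg16+PERKi and 6610 to 7394 CPM in Tg16. In Tg16+PERKi the summed levels were 10.6 to 11.4 CPM for macrophage, 9.60 to 11.4 CPM for endothelial and 0.500 to 1.03 CPM for epithelial markers. In Tg16 they were 8.55 to 11.1 CPM for macrophage, 8.15 to 9.62 CPM for endothelial and 0.359 to 0.945 CPM for epithelial markers. Blood markers summed to at most 0.118 CPM in Tg16+PERKi and 0.468 CPM in Tg16, and Adgre1, C1qa and C1qb (macrophage), Tie1, Emcn and Cldn5 (endothelial) and Cldn3 and Cldn4 (epithelial) were at 0 in all 8 libraries. Muscle markers, mostly Acta1, summed to 7.09 to 8.45 CPM in Tg16+PERKi against 3.56 to 6.17 CPM in Tg16. Neural markers, of which Nes had the highest mean over the 8 libraries, summed to 72.4 to 80.1 CPM in Tg16+PERKi against 55.3 to 60.3 CPM in Tg16. The sums of these lists thus moved with the groups. Single markers moved as well, as did most genes: 74.7% of all genes tested were called, 42.2% higher and 32.5% lower. Of the 10 fibroblast markers tested, 7 were called higher, 3 of them at least 2-fold, and 2 lower, 1 of them at least 2-fold. Their log2 changes ran from -1.35 to 2.32. Of the 4 macrophage markers tested, Lyz2, Csf1r and Cd68 were called higher, with means of 1.08 to 1.49 CPM in Tg16+PERKi and 0.582 to 0.694 CPM in Tg16, and Cd14 lower. Of the 5 endothelial markers tested, Flt1 was called higher (log2 change 0.50) and Pecam1 lower (-0.98), and the neural marker Tubb3 was called lower (-2.69). Their part in the results below was not tested.

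Promoters are shown for the 6 genes with the smallest p among the stress genes and the most changed genes that hold a response element within their RefSeq promoter window, because these elements are the known landing sites of the factors downstream of PERK, IRE1 and ATF6. The windows, on GRCm38.p6, run from 250 bases before to 50 bases after the annotated start and are chr1:191183284-191183583 (minus strand) for Atf3, chr8:94386179-94386478 (plus strand) for Herpud1, chr3:50443564-50443863 (minus strand) for Slc7a11, chr2:119350992-119351291 (plus strand) for Chac1, chr2:34771840-34772139 (plus strand) for Hspa5 and chr6:7693160-7693459 (minus strand) for Asns. Each is written 5′ to 3′ on the strand of the gene, and capitals mark the matched element. In Hspa5 this is the ER stress response element, spelled CCAAT and CCACG with 9 bases of any kind between them, and in the others it is TGATGNAA, the core of the C/EBP-ATF response element, read on either strand (TTNCATCA on the other).
Atf3: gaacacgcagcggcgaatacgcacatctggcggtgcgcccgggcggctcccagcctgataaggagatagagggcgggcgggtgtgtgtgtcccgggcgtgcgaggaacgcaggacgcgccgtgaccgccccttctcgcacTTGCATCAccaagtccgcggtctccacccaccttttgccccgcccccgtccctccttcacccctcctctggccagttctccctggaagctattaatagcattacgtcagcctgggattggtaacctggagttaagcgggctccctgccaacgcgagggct
Herpud1: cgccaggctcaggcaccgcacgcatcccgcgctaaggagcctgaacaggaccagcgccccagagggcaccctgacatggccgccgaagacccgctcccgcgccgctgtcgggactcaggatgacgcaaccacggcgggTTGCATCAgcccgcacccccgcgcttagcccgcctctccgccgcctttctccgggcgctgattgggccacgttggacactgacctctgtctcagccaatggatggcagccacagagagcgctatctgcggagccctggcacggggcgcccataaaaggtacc
Slc7a11: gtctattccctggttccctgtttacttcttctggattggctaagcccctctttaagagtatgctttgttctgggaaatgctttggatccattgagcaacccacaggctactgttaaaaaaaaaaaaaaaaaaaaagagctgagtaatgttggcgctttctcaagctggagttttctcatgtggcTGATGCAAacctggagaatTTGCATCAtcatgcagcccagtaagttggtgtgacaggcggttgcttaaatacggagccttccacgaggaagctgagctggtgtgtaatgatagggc
Chac1: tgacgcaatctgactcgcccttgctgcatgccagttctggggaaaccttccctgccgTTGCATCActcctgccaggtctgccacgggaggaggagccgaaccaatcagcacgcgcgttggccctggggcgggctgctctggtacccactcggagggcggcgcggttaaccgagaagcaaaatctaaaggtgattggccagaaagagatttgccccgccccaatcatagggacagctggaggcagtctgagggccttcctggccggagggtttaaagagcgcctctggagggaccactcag
Hspa5: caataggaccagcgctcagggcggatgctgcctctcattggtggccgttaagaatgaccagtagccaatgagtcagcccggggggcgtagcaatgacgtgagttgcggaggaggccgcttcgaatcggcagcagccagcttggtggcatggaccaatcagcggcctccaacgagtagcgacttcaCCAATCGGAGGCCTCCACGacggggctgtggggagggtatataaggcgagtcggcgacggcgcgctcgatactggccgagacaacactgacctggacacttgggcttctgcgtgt
Asns: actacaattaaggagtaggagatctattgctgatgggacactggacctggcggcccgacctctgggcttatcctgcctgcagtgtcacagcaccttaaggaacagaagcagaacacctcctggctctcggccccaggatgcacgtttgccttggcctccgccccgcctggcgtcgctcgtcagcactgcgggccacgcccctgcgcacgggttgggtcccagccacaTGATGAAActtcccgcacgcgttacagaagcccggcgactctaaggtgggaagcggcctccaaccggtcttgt
The match ended 185 bases before the start in Chac1, 46 in Hspa5 and 15 in Asns, and the pair of matches in Slc7a11 ended 58 and 39 bases before it. A match describes the letters of a window and is neither a bound site nor a cause.

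Late addition of the inhibitor came with far lower levels of the mRNAs of the PERK, ATF4 and CHOP branch. Of 14 genes followed as an ER stress panel, 13 fell, none rose, and the gene of PERK itself did not pass the test. For comparison, 74.7% of all genes tested were called, 42.2% higher and 32.5% lower, so that a call alone says little and the size and direction of a change matter more. The panel's median log2 change was -2.39, against 0.10 over all genes tested.

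The transcription factor genes of the branch came first. Atf3, a stress-induced factor that acts beside CHOP, had 6.59, 6.92, 5.53 and 7.01 CPM in Tg16+PERKi, against 360, 338, 342 and 355 CPM in Tg16. These groups lay far apart, and the inhibitor libraries were also below the control mean of 26.7 ± 1.26 CPM (SD, n = 4). The change was 53.5-fold lower (log2 change -5.74 ± 0.0683 SE, Benjamini-Hochberg adjusted p = 2.48e-19 by edgeR's quasi-likelihood test). Ddit3, which encodes CHOP, had 55.8, 50.1, 49.6 and 47.4 CPM in Tg16+PERKi, against 451, 552, 555 and 545 CPM in Tg16. It was 10.4-fold lower (log2 change -3.37 ± 0.105 SE), with no overlap, while the inhibitor libraries stayed above the control mean of 16.2 ± 2.78 CPM. Ddit3 has 2 overlapping gene records on the same strand of chromosome 10 in the annotation and shares exonic bases with Mars on the other strand. Its reads could therefore be divided or shared, and no source used here states whether counting used strand. Atf4, the factor whose translation depends on eIF2 phosphorylation, had 327, 319, 323 and 322 CPM in Tg16+PERKi, against 971, 976, 975 and 988 CPM in Tg16, 3.03-fold lower (log2 change -1.60 ± 0.0333 SE). Its libraries scattered little within a group, and the control mean of 534 ± 15.4 CPM lay between the groups.

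Direct effector genes of the branch fell in the same way. Chac1, which encodes an enzyme that breaks down glutathione, had 13.6, 11.7, 12.7 and 12.0 CPM in Tg16+PERKi, against 304, 407, 415 and 386 CPM in Tg16. Trib3, which encodes a pseudokinase that restrains AKT, had 13.0, 10.2, 13.8 and 11.5 CPM in Tg16+PERKi, against 148.4, 213, 205 and 198 CPM in Tg16. In both genes the lowest Tg16 library was replicate 1, and in both it still lay far above the highest inhibitor library. Chac1 was 30.2-fold lower (log2 change -4.92 ± 0.153 SE) and Trib3 15.8-fold lower (-3.98 ± 0.171 SE), and without Tg16 replicate 1 the changes were -5.01 and -4.08. Slc7a11, the cystine transporter gene, had 27.0, 33.1, 26.8 and 32.4 CPM in Tg16+PERKi, against 311, 258, 246 and 266 CPM in Tg16. It was 9.07-fold lower although its Tg16 level was close to that of control (278 ± 25.02 CPM; Tg16 minus control log2 change -0.04, adjusted p not past the threshold). Asns, asparagine synthetase, had 204, 241, 208 and 222 CPM in Tg16+PERKi, against 604, 536, 547 and 562 CPM in Tg16, 2.57-fold lower and below the control mean of 285 ± 19.6 CPM.

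The subunits that steer the eIF2 phosphatase fell as well. Ppp1r15a, the stress-induced subunit known as GADD34, had 75.0, 74.0, 72.7 and 65.7 CPM in Tg16+PERKi, against 796, 848, 885 and 890 CPM in Tg16. The 11.9-fold lower level (log2 change -3.57 ± 0.0766 SE) was within the spread of control (73.3 ± 5.50 CPM). Ppp1r15b, the constitutive subunit, had 86.8, 92.9, 89.2 and 89.7 CPM in Tg16+PERKi, against 255, 207, 208 and 221 CPM in Tg16, 2.48-fold lower. Its control level of 503 ± 38.0 CPM was above that of both groups. Eif2ak3, the gene of PERK, had 98.22, 110.26, 105.57 and 105.66 CPM in Tg16+PERKi, against 104.48, 101.9, 100.41 and 103.87 CPM in Tg16. The groups overlapped, and the log2 change was 0.03 ± 0.0442 SE with an adjusted p of 0.530 in edgeR's quasi-likelihood test; with offsets for coding length it became 0.14 and passed the threshold (adjusted p = 0.00759). Among the 17 genes of eIF2 kinases, eIF2 phosphatase, eIF2 and eIF2B, 13 fell, 3 rose and 1 did not pass, with a median log2 change of -0.26. The 3 that rose were the other eIF2 kinase genes, Eif2ak1 (0.45), Eif2ak4 (0.34) and Eif2ak2 (0.33). Eif2b3, a subunit of the eIF2B exchange factor, had 28.3 to 30.5 CPM in Tg16+PERKi and 100.5 to 120.9 CPM in Tg16, 3.75-fold lower.

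Members of the panel that stand for the IRE1 and ATF6 branches fell less, apart from Herpud1. Herpud1, which recruits the ubiquitin ligase of ER-associated degradation, had 319, 315, 315 and 300 CPM in Tg16+PERKi, against 3544, 3737, 3824 and 3674 CPM in Tg16. It was 11.8-fold lower (log2 change -3.56 ± 0.0454 SE) and slightly under the control mean of 373 ± 16.8 CPM (log2 change to control -0.26). Hspa5, which encodes the ER chaperone BiP, had 6548, 7152, 6434 and 7042 CPM in Tg16+PERKi, against 18288, 16080, 15763 and 16732 CPM in Tg16. Its groups did not overlap, the difference was 2.46-fold (log2 change -1.30 ± 0.0590 SE), and the inhibitor libraries remained well above control (1002 ± 74.0 CPM). Dnajb9, a BiP cochaperone and a known target of spliced XBP1, had 218, 231, 210 and 240 CPM in Tg16+PERKi, against 547, 461, 448 and 467 CPM in Tg16, 2.14-fold lower and again above control (64.5 ± 5.96 CPM). Xbp1 had 177, 185, 178 and 180 CPM in Tg16+PERKi, against 365, 332, 340 and 337 CPM in Tg16, 1.91-fold lower. The table counts Xbp1 as a whole and does not separate its spliced form.

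**Figure D1:**
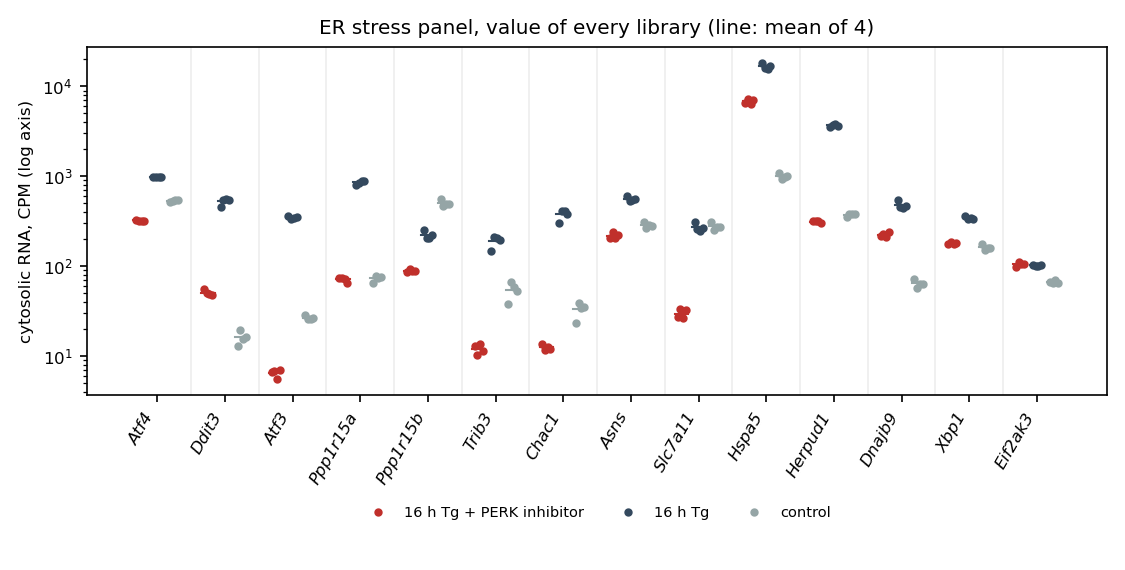
Levels of the 14 ER stress panel genes in cytosolic RNA, in CPM on a log axis. Each point is a library, with 4 of 16 h thapsigargin plus PERK inhibitor, 4 of 16 h thapsigargin and 4 of control, and the short line is the mean of 4; for every gene except Eif2ak3 the inhibitor libraries lie below all 16 h libraries, from 53.5-fold lower in Atf3 to 1.91-fold lower in Xbp1.

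Relative to control, the panel had 5 genes higher and 8 lower in Tg16+PERKi, and 12 higher and 1 lower in Tg16. Of all genes tested, 73.3% were called against control in Tg16+PERKi and 77.3% in Tg16. These comparisons share libraries with that between the drug groups, so the values are set side by side only. Those above control in Tg16+PERKi were Hspa5 (log2 change to control 2.76), Dnajb9 (1.80), Ddit3 (1.65), Eif2ak3 (0.65) and Xbp1 (0.15). In polysome RNA, where 82.8% of genes were called between the same conditions, 13 of the 14 were lower and none higher. The polysome log2 change was -4.32 for Atf4, -5.40 for Ddit3 and -5.71 for Ppp1r15a, beside cytosolic changes of -1.60, -3.37 and -3.57.

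Beyond the panel, 9239 of 12366 genes were called, 5223 higher and 4016 lower in Tg16+PERKi. Many of the changes were small: 4085 of the called genes differed by less than 1.5-fold, and the median size over called genes was 0.65 on the log2 scale. At least 2-fold higher were 1590 genes (12.9% of those tested) and at least 2-fold lower 947 genes (7.66%). The 4 and 4 values of a gene lay entirely apart in 8505 genes (68.8%), of which 8400 were also called. When the filter, scaling and fit were taken from the 8 libraries alone (11952 genes tested), 4265 genes were called higher and 4792 lower. The median over genes tested in both fits then shifted by -0.13 on the log2 scale. RLE scaling factors with all cytosolic libraries shifted it by -0.06, with 4817 genes called higher and 4378 lower. Small changes in either direction thus depend on the processing, scaling included. Nothing in the labels states that the 4 replicates of a group came from separate cultures, so the p-values describe only how these samples scatter, and that scatter may be technical.

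**Figure D2:**
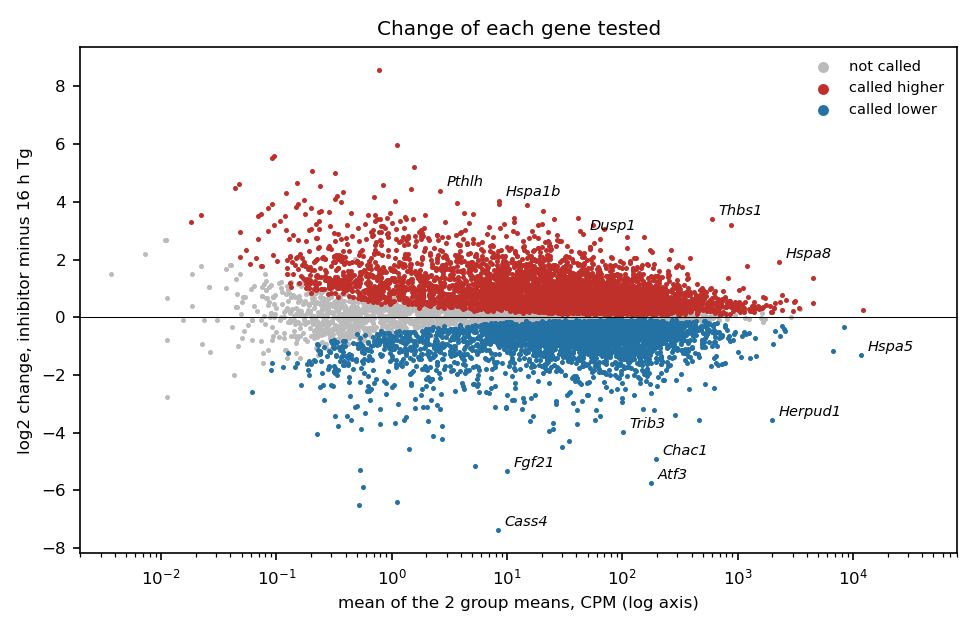
Log2 change of each of the 12366 genes tested, Tg16+PERKi minus Tg16, against the mean of the group means in CPM on a log axis. Red and blue points are the 5223 genes called higher and the 4016 called lower, grey points are not called; Atf3, Chac1, Trib3 and Herpud1 are among the genes that fell, and Hspa8 and Thbs1 are among the abundant genes that rose.

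The 10 lowest changes among genes that reached a mean of 5 CPM in either group belonged to Cass4, Atf3, Fgf21, Fibin, Chac1, Dhrs9, Dgat2, Prdm16, Trib3 and Fam84b. Fgf21, a secreted metabolic hormone induced by ATF4, had 0.300, 0.383, 0.516 and 0.731 CPM in Tg16+PERKi, against 15.2, 23.1, 19.4 and 20.7 CPM in Tg16, 40.2-fold lower (log2 change -5.33 ± 0.256 SE). Dgat2, which makes triglycerides from diacylglycerol, had 3.38, 2.62, 3.90 and 3.45 CPM in Tg16+PERKi, against 54.5, 67.4, 72.7 and 65.9 CPM in Tg16, 19.5-fold lower. In control Dgat2 had 60.1 ± 8.33 CPM, and its log2 change in Tg16 relative to control, 0.12, did not pass the test. Cass4, an adaptor of focal adhesions, had 0.0899, 0, 0.201 and 0.0877 CPM in Tg16+PERKi, against 16.4, 17.1, 17.5 and 15.5 CPM in Tg16, 167-fold lower. That ratio rests on a few counts per inhibitor library, and leaving out single libraries moved its log2 change of -7.39 between -8.04 and -6.99. Fibin was 35.6-fold lower, Dhrs9, a retinol and steroid dehydrogenase gene, 22.5-fold lower, Prdm16, a transcription regulator of brown fat, 18.4-fold lower, and Fam84b 15.4-fold lower.

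The 10 highest changes, chosen in the same way, were those of Pthlh, Hspa1b, Dpt, Bmf, Mpp2, Mrgprf, Syk, Mxd3, Syt13 and Wisp2. Pthlh, which encodes parathyroid hormone-related protein, had 5.96, 4.56, 5.07 and 4.56 CPM in Tg16+PERKi, against 0.294, 0.218, 0.301 and 0.143 CPM in Tg16, 21.0-fold higher (log2 change 4.39 ± 0.209 SE). Bmf, a BH3-only activator of apoptosis, had 15.6, 17.3, 16.5 and 14.7 CPM in Tg16+PERKi, against 1.04, 1.09, 1.07 and 0.973 CPM in Tg16, 15.3-fold higher, with 10.8 ± 0.820 CPM in control. Dpt, which encodes the matrix protein dermatopontin, had 6.35, 8.21, 6.70 and 6.52 CPM in Tg16+PERKi, against 0.326, 0.437, 0.569 and 0.458 CPM in Tg16. Its inhibitor level was 15.4-fold above Tg16 and yet far below control (66.0 ± 2.83 CPM). Of the others, Mpp2, a membrane scaffold gene, was 14.9-fold higher, Mrgprf, an orphan receptor gene, 13.0-fold, the tyrosine kinase gene Syk 12.1-fold, Mxd3, a partner of MAX, 11.9-fold, Syt13 10.9-fold, and Wisp2, a secreted matrix-associated protein gene, 10.8-fold. Mxd3 shares exonic bases with Prelid1 on the other strand.

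Across gene lists, most members fell in those for amino acid supply, tRNA charging and ribosome assembly, and most rose in those for DNA replication, mitosis, the actin cytoskeleton and ribosomal proteins, where the rise of ribosomal proteins was lost with offsets for coding length.

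**Figure D3:**
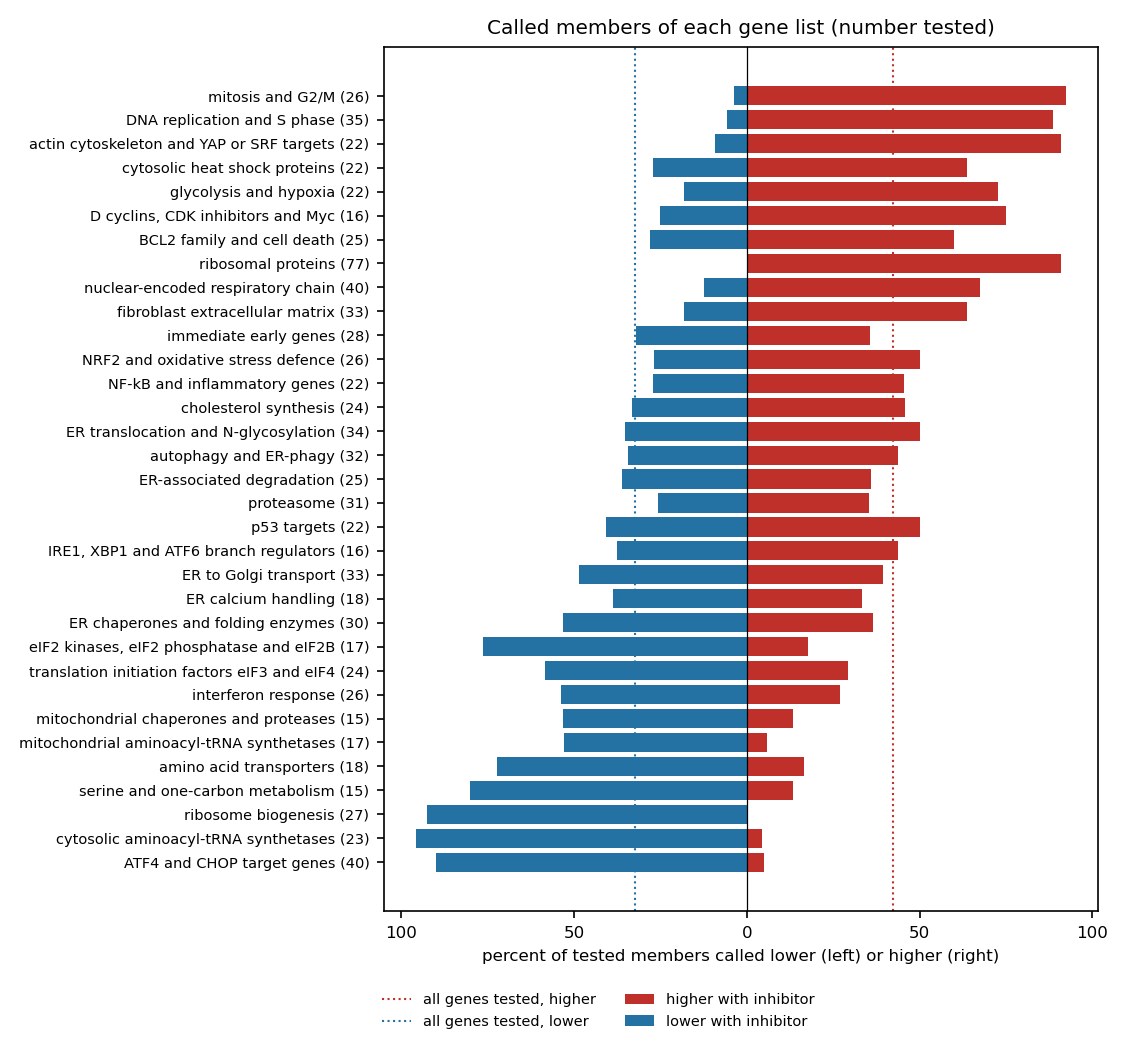
Share of the tested members of each gene list called lower (left, blue) or higher (right, red) in Tg16+PERKi relative to Tg16, in percent, with the number tested in brackets and lists ordered by median log2 change. Dotted lines mark the shares over all genes tested, 32.5% lower and 42.2% higher. ATF4 and CHOP targets, cytosolic aminoacyl-tRNA synthetases and ribosome biogenesis genes lie almost entirely to the left. Mitosis, DNA replication and actin genes lie almost entirely to the right.

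Of 40 tested target genes of ATF4 and CHOP, 36 fell, 2 rose and 2 did not pass, with a median log2 change of -1.57, and 27 of them fell at least 2-fold. Of these 40 genes, 18 are also on the panel or on the tRNA charging, transporter and serine lists below, so these lists are not separate counts. Slc7a1, the carrier of arginine and lysine, had 110.6, 122.2, 110.4 and 113.1 CPM in Tg16+PERKi, against 656, 618, 648 and 643 CPM in Tg16, 5.62-fold lower. Got1, a cytosolic aminotransferase gene, had 47.3 to 52.7 CPM in Tg16+PERKi and 232 to 242 CPM in Tg16, 4.83-fold lower. Secreted factors of the list went down steeply too, with log2 changes of -3.67 for Stc2, -3.66 for Gdf15 and -1.80 for Vegfa. The 2 that rose were Atf5 (0.73), itself a stress transcription factor, and Tnfrsf10b (0.70), the death receptor gene; Cbs and Bbc3 did not pass, with log2 changes of 0.20 and -0.54.

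Among 23 genes of cytosolic aminoacyl-tRNA synthetases and their scaffold proteins, which load tRNAs with amino acids, 22 fell and 1 rose, with a median of -1.23. Cars, for cysteine, had 22.3, 23.1, 22.4 and 22.9 CPM in Tg16+PERKi, against 126.7, 117.2, 122.6 and 123.4 CPM in Tg16, 5.40-fold lower and below control (76.1 ± 0.567 CPM). Tars, for threonine, was 3.87-fold lower and Yars, for tyrosine, 3.10-fold lower. The synthetase of glutamine, Qars, was the gene that rose (log2 change 0.44), and Kars (-0.21) and the scaffold genes Aimp1 (-0.35) and Aimp2 (-0.26) fell least. Of 17 synthetases of mitochondria, encoded by separate genes for the most part, 9 fell, 1 rose and 7 did not pass, with a median of -0.37; Nars2 fell 3.70-fold and Rars2 3.02-fold.

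Of 18 amino acid transporter genes, 13 fell and 3 rose, and the median log2 change was -0.85. Besides Slc7a11 and Slc7a1, Slc1a4, a carrier of neutral amino acids, had 82.7, 86.2, 84.7 and 83.6 CPM in Tg16+PERKi, against 391.8, 367.5, 372 and 384.6 CPM in Tg16, 4.49-fold lower. Slc7a2 was 3.82-fold lower. The 3 that rose were Slc43a2 (log2 change 1.01), Slc36a1 (0.77) and Slc36a4 (0.61), where the Slc36 genes encode proton-coupled carriers. Serine and one-carbon metabolism feeds purine and thymidylate synthesis. In its list, which also holds genes of proline synthesis, 12 of 15 genes fell, 2 rose and 1 did not pass, with a median of -0.91. Aldh18a1, the entry enzyme of proline synthesis, had 82.6, 87.7, 81.0 and 78.4 CPM in Tg16+PERKi, against 363, 364, 380 and 384 CPM in Tg16, 4.52-fold lower. The mitochondrial folate genes Mthfd2 and Mthfd1l were 2.82-fold and 2.24-fold lower. Tyms (0.82), the thymidylate synthase gene, was among those that rose and is also on the S phase list.

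Ribosome assembly and the ribosome itself moved apart. Of 27 tested ribosome biogenesis genes, 25 fell and none rose, with a median of -1.17. Wdr43, a factor of the small subunit processome, had 78.5, 80.0, 72.9 and 81.3 CPM in Tg16+PERKi, against 352, 319, 312 and 328 CPM in Tg16, 4.19-fold lower. Polr1b, a subunit of RNA polymerase I, was 3.20-fold lower and Nolc1, a nucleolar phosphoprotein gene, 2.57-fold lower. Myc, a transcription factor known to drive ribosome assembly genes, had 66.6, 56.8, 68.1 and 63.7 CPM in Tg16+PERKi, against 278, 378, 357 and 326 CPM in Tg16, 5.24-fold lower, and its control level of 333 ± 42.2 CPM was like that of Tg16. Of 77 ribosomal protein genes, 70 rose, none fell and 7 did not pass, with a median of 0.40 and a range of -0.12 to 0.83; Rpl37a, at 254 to 282 CPM in Tg16+PERKi and 144 to 159 CPM in Tg16, was 1.78-fold higher and Rpl11 1.52-fold higher. Rps23 had 1219.5, 1174.5, 1114.3 and 1151.6 CPM in Tg16+PERKi, against 886.6, 912.9, 900.3 and 892.9 CPM in Tg16, 1.30-fold higher. With offsets for coding length in the fit, an alternative chosen after seeing the data, this direction was lost, with 12 higher, 8 lower, a median of 0.00 and -0.03 for Rps23, and single ribosomal protein genes are uncertain because processed pseudogenes can share their reads. Of 24 initiation factor genes of the eIF3 and eIF4 groups, 14 fell and 7 rose, and the median was -0.30; Eif3c fell 2.58-fold, and Eif4ebp2, a translational repressor gene, rose 2.67-fold.

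Coding length went with the direction of change in general. Genes with coding sequences under 400 nt (534 genes) had a median log2 change of 0.63, those of 400 to 599 nt 0.43, those of 600 to 899 nt 0.26, those of 900 to 1499 nt 0.07, those of 1500 to 2999 nt -0.07 and those of 3000 nt or more (1750 genes) -0.09. Lengths were available for 12214 of the 12366 genes. The shortest class took 5.98 to 6.41% of the counts in Tg16+PERKi, 4.01 to 4.46% in Tg16 and 4.73 to 4.85% in control, with no overlap between groups. The longest took 11.2 to 11.5% in Tg16+PERKi, 12.8 to 13.0% in Tg16 and 14.8 to 15.6% in control. Set against the median of their own length class, ribosomal protein genes had a median of -0.03 and respiratory chain genes 0.02. The lists of ATF4 and CHOP targets (-1.76), cytosolic aminoacyl-tRNA synthetases (-1.25), mitosis (1.35), DNA replication (1.07) and actin genes (0.90) stayed away from 0. Whether the length pattern came from the cells or from the making of the libraries was not tested.

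**Figure D4:**
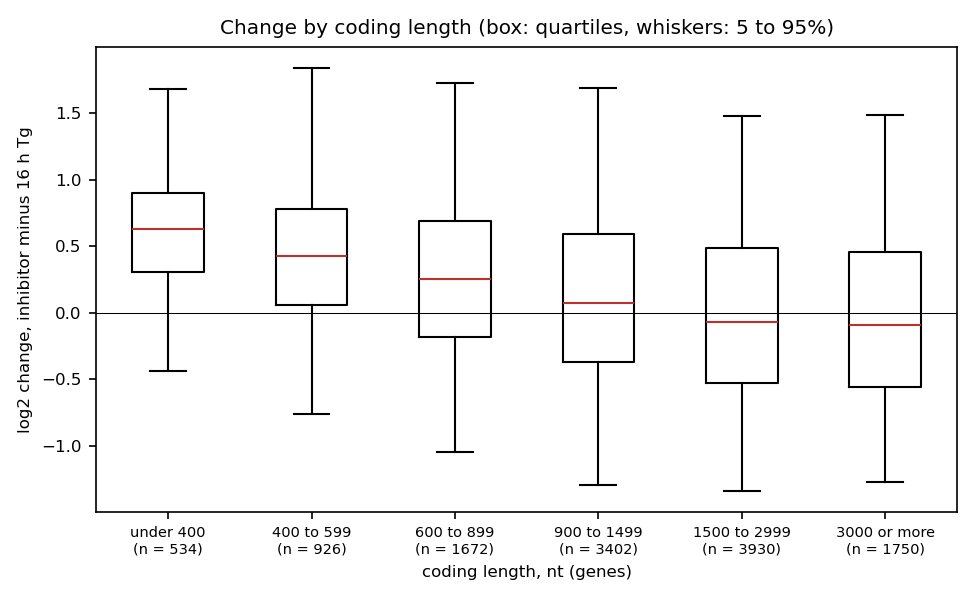
Log2 change, Tg16+PERKi minus Tg16, of genes grouped by coding length in nucleotides. The red line is the median, boxes span the quartiles and whiskers the 5th to 95th percentile; medians descend from 0.63 under 400 nt to -0.09 at 3000 nt or more, and the boxes overlap.

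Within the ER, the directions were mixed, beside 42.2% higher and 32.5% lower over all genes tested. Of 16 regulators of the IRE1, XBP1 and ATF6 branches, 7 rose and 6 fell, and the median was -0.02. In the fit of the 8 libraries alone 6 rose and 7 fell. With offsets for coding length 5 rose, 6 fell and the median was 0.02. The sensors themselves fell: Atf6 had 120.8, 134.8, 119.3 and 123 CPM in Tg16+PERKi, against 432, 374, 372 and 404 CPM in Tg16, 3.18-fold lower and close to control (126 ± 8.33 CPM), and Ern1, the gene of IRE1, was 2.42-fold lower. Of 30 ER chaperones and folding enzymes, 16 fell, 11 rose and 3 did not pass, with a median of -0.22. Hsp90b1, the ER member of the HSP90 family, had 3990, 4378, 3875 and 4362 CPM in Tg16+PERKi, against 10330, 8782, 8460 and 9360 CPM in Tg16, 2.22-fold lower. In the other direction Fkbp14, a prolyl isomerase that acts on collagen, was 2.82-fold higher; it shares exonic bases with Plekha8 on the other strand. Relative to control, 25 of these 30 genes were higher in Tg16+PERKi and 24 were higher in Tg16, values that share the control libraries.

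Genes of ER-associated degradation split evenly, with 9 of 25 higher, 9 lower and a median of 0.05. In the fit of the 8 libraries alone the split was 6 to 12 and the median -0.08. Besides Herpud1, Ufd1l, a cofactor of the VCP segregase, was 1.60-fold lower, and Rnf5, a membrane ubiquitin ligase gene, 2.02-fold higher. Of 34 genes of translocation and N-glycosylation, 17 rose and 12 fell, and the median was 0.13. It turned to -0.12 with offsets for coding length and to -0.01 in the fit of the 8 libraries alone. Dad1, a small subunit of oligosaccharyltransferase, had 280, 287, 275 and 267 CPM in Tg16+PERKi, against 116.2, 115.8, 131.8 and 119.4 CPM in Tg16, 2.30-fold higher, and Srp68, of the signal recognition particle, was 1.98-fold lower. Of 33 genes of ER to Golgi transport 16 fell, among them coat subunits such as Copb2 (log2 change -0.84) and Sec31a (-0.74), and 13 rose. All 3 receptors that return escaped ER proteins rose, Kdelr3 2.12-fold, Kdelr1 1.66-fold and Kdelr2 1.64-fold. Of 18 ER calcium genes, 7 fell and 6 rose, while 10 fell and 6 rose in the fit of the 8 libraries alone. Over all genes tested 32.5% fell and 42.2% rose. Log2 changes in the calcium list ran from -1.03 to 0.72. The calcium pump genes Atp2a3 and Atp2a2, whose products thapsigargin binds, were 2.04-fold and 1.75-fold lower, and the calcium release channel gene Itpr2 was 1.97-fold lower.

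Genes of cell division rose almost as a body. Of 35 genes of DNA replication and S phase, 31 rose, 2 fell and 2 did not pass, with a median of 1.17, and of 26 genes of mitosis and G2/M, 24 rose, 1 fell and 1 did not pass, with a median of 1.30. Rrm2, the regulated subunit of ribonucleotide reductase, had 182, 185, 177 and 191 CPM in Tg16+PERKi, against 47.8, 46.7, 47.6 and 47.5 CPM in Tg16. It was 3.88-fold higher (log2 change 1.95 ± 0.0574 SE, adjusted p = 1.48e-14 in edgeR's quasi-likelihood test) and exceeded control (73.7 ± 6.98 CPM). Cenpf, a kinetochore protein gene, had 40.8, 40.7, 36.1 and 42.5 CPM in Tg16+PERKi, against 6.20, 6.55, 6.96 and 7.16 CPM in Tg16, 5.95-fold higher, with 50.7 ± 5.71 CPM in control. Aurkb, a mitotic kinase gene, was 3.97-fold higher, Birc5, its partner survivin, 3.58-fold, the flap endonuclease gene Fen1 3.24-fold, and Cdc45, of the replicative helicase, 2.66-fold. The members that fell were the helicase subunits Mcm7 (log2 change -0.63) and Mcm2 (-0.44) and, in mitosis, the spindle factor gene Tpx2 (-0.24).

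The replication list stood above control more often than the mitosis list did. In Tg16+PERKi relative to control, 32 of 35 replication genes were higher and none lower, with a median of 0.85, and 6 of 26 mitosis genes were higher and 14 lower, with a median of -0.27. In Tg16 relative to control, 6 replication genes were higher and 20 lower, and all 26 mitosis genes were lower, with medians of -0.23 and -1.34. The 16 genes of D cyclins, CDK inhibitors and the Myc network included brakes that rose as well: Cdkn2c, which inhibits CDK4 and CDK6, had 57.2, 55.3, 52.3 and 57.7 CPM in Tg16+PERKi, against 9.75, 10.1, 10.2 and 10.4 CPM in Tg16, 5.50-fold higher, and Cdkn2d was 5.50-fold higher. In all 12 of the 16 rose and 4 fell, with a median of 0.49. In bulk RNA a different share of dividing cells and a different amount of RNA per cell cannot be told apart.

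Genes of the actin cytoskeleton and targets of YAP and SRF, which answer to cell tension, made up a list of 22, of which 20 rose and 2 fell, and the median was 1.05. Actg1, cytoplasmic gamma actin, had 1886, 1877, 1915 and 1819 CPM in Tg16+PERKi, against 531, 539, 561 and 538 CPM in Tg16, 3.46-fold higher. Vcl, the focal adhesion gene vinculin, was 2.70-fold higher and Cyr61, a YAP target, 2.64-fold higher. All 3 stayed below control, where Actg1 had 3894 ± 120 CPM, Vcl 960 ± 37.9 CPM and Cyr61 3528 ± 58.7 CPM. Reads of Actg1 may be shared with its pseudogenes, and Vcl has exonic bases in common with Ap3m1 on the other strand.

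Of 33 extracellular matrix genes of fibroblasts, 21 rose and 6 fell, and the median was 0.32. Thbs1, which encodes thrombospondin-1, had 1052, 1133, 1089 and 1078 CPM in Tg16+PERKi, against 110, 99.9, 102 and 102 CPM in Tg16, 10.5-fold higher (log2 change 3.39 ± 0.0400 SE). Timp2, an inhibitor of matrix metalloproteinases, had 613, 642, 618 and 604 CPM in Tg16+PERKi, against 149, 147, 152 and 151 CPM in Tg16, 4.13-fold higher. Fibronectin went the other way: Fn1 had 805, 856, 833 and 780 CPM in Tg16+PERKi, against 2108, 2032, 2088 and 2097 CPM in Tg16, 2.54-fold lower. Control levels were 4725 ± 41.2 CPM for Thbs1, 1754 ± 43.5 CPM for Timp2 and 2237 ± 67.0 CPM for Fn1, so in Tg16+PERKi Thbs1 and Timp2 lay nearer to control than in Tg16, and Fn1 farther from it.

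**Figure D5:**
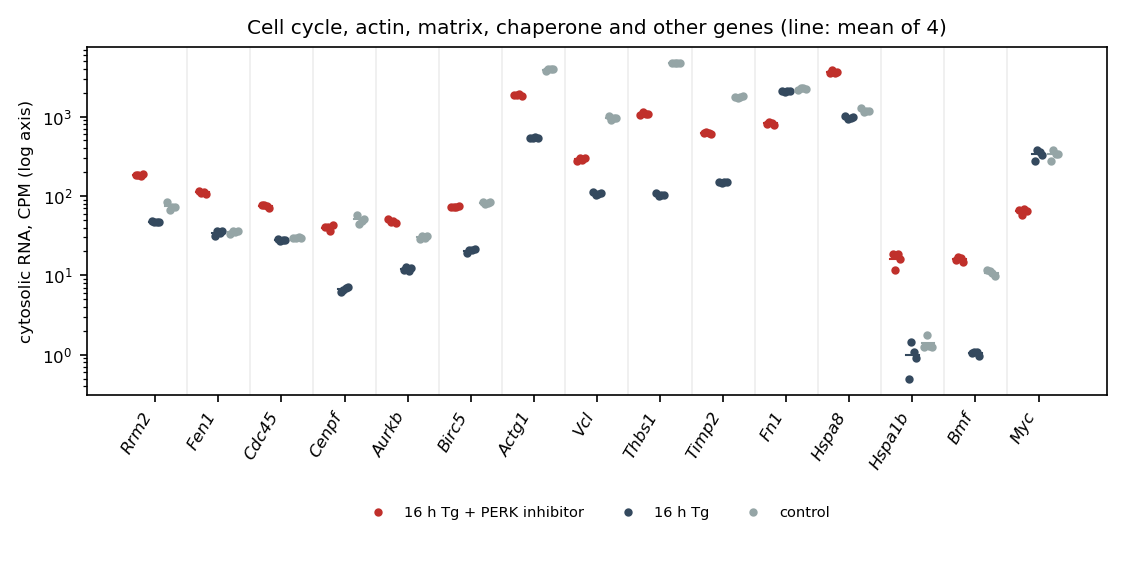
Levels in CPM on a log axis of 15 genes of cell division, actin, matrix, chaperones, cell death and Myc, 1 point per library with the mean of 4 as a line. The 4 libraries of 16 h thapsigargin plus PERK inhibitor lie above all 4 of 16 h thapsigargin in each gene except Fn1 and Myc, where they lie below.

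Of 22 cytosolic heat shock genes, 14 rose and 6 fell, and the median was 0.55. Hspa8, the constitutive HSC70, had 3545, 3813, 3576 and 3598 CPM in Tg16+PERKi, against 1005, 926, 947 and 980 CPM in Tg16, 3.77-fold higher and above control (1195 ± 66.5 CPM). Hspa1b, an inducible HSP70, had 18.6, 11.7, 18.4 and 16.2 CPM in Tg16+PERKi, against 0.489, 1.43, 1.07 and 0.916 CPM in Tg16, 16.5-fold higher; reads can be shared with its near-identical neighbour Hspa1a, whose log2 change was 3.64. Dnajb1, an HSP40 cochaperone, was 2.59-fold higher. The 6 that fell were Hspa4, Dnaja2, Stip1 and the chaperonin subunits Cct3, Cct5 and Cct2, with Hspa4 2.02-fold lower. Of 15 mitochondrial chaperones and proteases, 8 fell and 2 rose, and the median was -0.36. Dnaja3 was 3.50-fold lower and Hspa9, mitochondrial HSP70, 2.33-fold lower. Dnaja3 shares exonic bases with Vasn on the same strand and with Coro7 on the other.

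Of 25 cell death regulators of the BCL2 family and the caspases, 15 rose and 7 fell, and the median was 0.45. Bmf led the rises, and Casp9, the caspase of the apoptosome, was 1.82-fold higher, at 41.6 to 45.7 CPM in Tg16+PERKi and 22.9 to 24.8 CPM in Tg16. Both killers and guardians were among the risers, such as Bok (log2 change 2.49) and Bak1 (1.30) beside Bcl2l1 (1.43). Bid, which links death receptors to mitochondria, was 2.03-fold lower, and the BH3-only gene Hrk had the deepest fall (-4.10). Hrk did not meet the rule for the 10 lowest changes (a call, a mean of 5 CPM in either group, no overlap). Of 22 p53 targets 11 rose and 9 fell, beside 42.2% higher and 32.5% lower over all genes tested. In the fit of the 8 libraries alone 8 rose and 10 fell, and with offsets for coding length 8 rose and 11 fell. Gadd45a, which stalls the cell cycle, had 38.5, 32.6, 38.4 and 36.9 CPM in Tg16+PERKi, against 325, 377, 338 and 330 CPM in Tg16, 9.36-fold lower, and Sesn2, a nutrient sensor that ATF4 also induces, was 9.22-fold lower. Gdf15 and Sesn2 are also known ATF4 or CHOP targets. The p53 list's median of 0.03 turned to -0.11 in the fit of the 8 libraries alone and to -0.20 with the length offsets.

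Signalling genes split. Of 28 immediate early genes, 10 rose, 9 fell and 9 did not pass. In the fit of the 8 libraries alone, 27 of them were tested, 9 were higher and 10 lower. With length offsets 10 were higher and 11 lower. Dusp1, a phosphatase of MAP kinases, had 82.6, 81.2, 81.0 and 77.7 CPM in Tg16+PERKi, against 10.11, 10.98, 11.25 and 11.45 CPM in Tg16, 7.36-fold higher, and Fosl2, of the AP-1 family, was 2.68-fold higher. Klf4, a zinc finger factor, had 2.67, 2.62, 2.95 and 2.48 CPM in Tg16+PERKi, against 23.3, 25.3, 25.7 and 23.4 CPM in Tg16, 9.10-fold lower. Phosphatase genes of the same family, Dusp6, Dusp4 and Dusp2, fell, with log2 changes of -2.13, -1.92 and -1.86. Among 22 NF-kB and inflammatory genes, 10 rose and 6 fell. The split was 7 to 7 in the fit of the 8 libraries alone and 7 higher to 9 lower with offsets for coding length. The feedback inhibitor gene Tnfaip3 was 4.10-fold higher, Nfkbiz 2.31-fold higher and Tnfaip2 7.69-fold lower. Of 26 interferon response genes, 14 fell and 7 rose, and the median was -0.34; Usp18, at 7.31 to 8.71 CPM in Tg16+PERKi and 21.6 to 27.3 CPM in Tg16, was 3.21-fold lower, Ifit1 2.12-fold lower and Irf1 2.38-fold higher.

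In energy metabolism, 16 of 22 glycolysis and hypoxia genes rose and 4 fell, and the median was 0.50. Car9, carbonic anhydrase IX, had 27.8, 26.1, 29.2 and 26.6 CPM in Tg16+PERKi, against 6.82, 6.83, 6.56 and 6.84 CPM in Tg16, 4.05-fold higher, and Bnip3, a mitophagy receptor gene, was 3.59-fold higher. Pfkfb3, which makes the activator of phosphofructokinase, was 3.60-fold lower. Of 40 nuclear-encoded respiratory chain genes, 27 rose and 5 fell, and the median was 0.37, while with offsets for coding length 11 rose and 9 fell; Sdhd was 1.75-fold and Sdhc 1.47-fold higher. Cox6c, 1.77-fold higher, overlaps Vps13b on the other strand.

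Redox and clearance genes showed no common direction. Of 26 genes of NRF2 and oxidative defence, 13 rose and 7 fell, but in the fit of the 8 libraries alone 10 rose and 12 fell. Hmox1, heme oxygenase 1, had 181, 175, 182 and 166 CPM in Tg16+PERKi, against 799, 862, 924 and 879 CPM in Tg16, 4.92-fold lower, whereas Srxn1, sulfiredoxin, had 361, 388, 364 and 366 CPM in Tg16+PERKi, against 142.9, 130.2, 129.9 and 138 CPM in Tg16, 2.74-fold higher. Of 32 autophagy and ER-phagy genes, 14 rose and 11 fell, against 12 and 13 in the fit of the 8 libraries alone. Sqstm1, the cargo receptor p62, was 2.65-fold lower. Gabarap, of the LC3 family, and the ER-phagy receptor gene Fam134b were both 1.83-fold higher. Of 31 proteasome genes, 11 rose and 8 fell, and the median was 0.04. It turned to -0.09 in the fit of the 8 libraries alone and to -0.10 with offsets for coding length. Of 24 cholesterol synthesis genes, 11 rose and 8 fell, beside 42.2% higher and 32.5% lower over all genes tested. The median was 0.13, and 0.0007 in the fit of the 8 libraries alone. Hsd17b7 was 2.24-fold, Stard4, a cholesterol carrier gene, 2.16-fold and Acat2 1.98-fold higher. The lowest log2 change of the list was -1.03.

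The response elements shown in the promoters were counted over all genes with a RefSeq window, which 9485 of the genes tested had. The C/EBP-ATF core TGATGNAA, on either strand, was in 3.97% of 32851 promoters of the table and in the window of 2.87% of the genes tested. Of 718 genes called at least 2-fold lower in Tg16+PERKi, 57 held it (7.94%), and of 135 called at least 4-fold lower, 21 did (15.6%). Among genes called higher the counts were 31 of 1191 (2.60%) at 2-fold and 7 of 250 (2.80%) at 4-fold. It was found in 11 of 33 ATF4 and CHOP targets, 5 of 15 cytosolic aminoacyl-tRNA synthetase genes, 6 of 13 panel genes and none of 56 ribosomal protein genes. The ER stress response element was in 0.119% of all promoters, in the windows of 0.179% of the genes tested and in 7 of 24 ER chaperone genes, Hspa5 among them. The unfolded protein response element TGACGTGG was in 0.676% of all promoters, in the windows of 1.03% of the genes tested, in 9 of the 718 genes (1.2535%) and in none of the panel. Windows of Atf4, Ddit3 and Ppp1r15a held none of the 3 spellings, which says only that these letters are not in those 300 bases.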

How the data were processed

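RNA from mouse embryonic fibroblasts was sequenced in 32 libraries, 16 of cytosolic RNA and 16 of mRNAs on more than 4 ribosomes, with 4 per condition. The authors deposited 1 table of raw read counts per gene symbol, and the submitters' processing notes name the aligner HISAT, the build mm10 and DESeq2 1.9.23. How reads were counted, by which annotation and with which strand rule, no source used here states.

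Counts of the 16 cytosolic libraries were filtered (filterByExpr, minimum count 10, minimum total 15), scaled by TMM and fitted by group with the robust quasi-likelihood test of edgeR 4.0.16 (R 4.3.3, limma 3.58.1, 12 residual degrees of freedom). The contrast was Tg16+PERKi minus Tg16, and genes were called at a Benjamini-Hochberg adjusted p under 0.05 over all genes tested. The code was tested on simulated data. SE is that of the fitted log2 change, SD that of CPM over 4 libraries. No pair of libraries of a group looked like the same library sequenced again, since chi-square per degree of freedom was 2.97 to 43.2. This check cannot tell whether libraries of a group came from the same RNA or culture. Coding length came from GENCODE M21 and promoters from RefSeq (GRCm38.p6).

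The members and lists were chosen with earlier results of these data known. Genes named by rule are the 14 of the ER stress panel, the 10 highest and 10 lowest changes among called genes with a mean of at least 5 CPM in either group and values that do not overlap (clone-type symbols left out), and the 3 called members of each list with the smallest p. Other named list members were chosen after their values were seen. Alternatives were the 8 libraries alone, the replicate number as a block, RLE factors, no count filter, DESeq2 1.42.0, limma-voom, leaving out each library, and, chosen after seeing the data, coding length offsets.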

Additional observations from a re-analysis of the deposited data

Results flagged for a closer look

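For the genes named by rule, the 4 values of Tg16+PERKi and the 4 of Tg16 were searched for a library far from the other 3 of its group (Dixon's test at its 95% critical value). Of 242 groups of 4, 13 held one, and chance gives about 1 in 20. In Tg16+PERKi, Dnaja3, a mitochondrial cochaperone gene, had 76.5 CPM in replicate 2 against 71.8 to 72.1 CPM in the others, and Iars2, the mitochondrial isoleucine tRNA synthetase gene, had 42 CPM in replicate 1 against 43.8 to 44.1 CPM. The other 11 were in Tg16, and 8 of them were values of replicate 1, the library that also stood apart on the second principal component. In that library Ddit3 was at 451 CPM (545 to 555 CPM in the others), Tnfaip2 at 22.3 CPM (25.2 to 25.8 CPM) and Wisp2 at 5.09 CPM (7.47 to 7.89 CPM), each on the low side. On the high side were Iars2 at 92.7 CPM (82.2 to 83.9 CPM), Dhrs9 at 68.8 CPM (52.7 to 55.4 CPM), Fam84b at 49.1 CPM (40.9 to 42.3 CPM), Cdc45 at 29.1 CPM (27.4 to 27.7 CPM) and the cholesterol carrier gene Stard4 at 21.5 CPM (18.4 to 18.9 CPM). Usp18 was at 21.6 CPM in replicate 2 of Tg16 (27.0 to 27.3 CPM in the others), Car9 at 6.56 CPM in replicate 3 (6.82 to 6.84 CPM) and the initiation factor gene Eif4g1 at 469 CPM in replicate 4 (460 to 461 CPM). Each of these genes kept its direction and its call when any single library of the 8 was left out.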

How the results depend on the processing

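Of the 5 counts of called genes (all, higher, lower, and either direction by 2-fold or more), none left the range of 1.5 times its value under any alternative run. The number called, 9239, became 9057 with the 8 libraries alone, 9195 with RLE factors, 9319 of 16642 genes without the count filter, 9300 with DESeq2 (1595 adjusted p-values not available), 9287 with limma-voom and 8912 with coding length offsets. Leaving out 1 library at a time gave 8848 to 9091 genes called, 4992 to 5142 of them higher and 3856 to 3968 lower, with 1527 to 1629 higher and 939 to 989 lower by 2-fold or more. The split by direction moved most with the 8 libraries alone, where 47.1% of called genes were higher, against 56.5%. The median of the genes tested in both fits shifted there by -0.13. There 1158 genes were higher and 1177 lower by 2-fold or more, against 1590 and 947 in the main fit. RLE factors shifted the median by -0.06. With coding length offsets 114 genes called in both fits changed direction; under every other setting no gene called in both did. The cause was not tested.

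Same-numbered libraries of Tg16+PERKi and Tg16 deviated from their group means with correlations of -0.43, -0.43, 0.27 and -0.04. Not every library correlated best with its own number, and the largest correlation, 0.52, was between Tg16+PERKi replicate 2 and Tg16 replicate 1. Deviations from a group's own mean cancel out over its libraries, which forces mixed signs. These values therefore cannot tell whether a replicate number marks a shared day, culture or batch. The replicate block gave 9101 called genes, and 9066 were among those called without it.

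Of the changes of named genes, 1810 alternative values kept direction and call, and 5 did not. Eif2ak3 was -0.10 with the 8 libraries alone, -0.028 with RLE factors, -0.028 with DESeq2, none past the threshold, and 0.14 past it with coding length offsets. Rps23 was -0.030 with coding length offsets and no longer called. The cause was not tested.

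With 29.5 to 35.0 M counts per library, small differences passed the test for many genes: changes near 0 depend on the scaling. Genes near 0 in a group, such as Cass4, have folds that rest on a few counts. Reads of near-identical or overlapping genes cannot be assigned from the table. Besides the overlaps given above, Bid (Bcl2l13), Dusp1 (Ergic1), Fen1 (Tmem258), Iars2 (Rab3gap2), Kdelr3 (Ddx17) and Yars (C77080) share exonic bases with the bracketed gene on the other strand. Levels are relative to each library's total, so a change in the amount of RNA per cell would not show.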

Other observations

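Polysome RNA, from mRNAs on more than 4 ribosomes of the same conditions, gave list counts that went beyond those of cytosolic RNA in some lists and against them in others; the difference between the RNA kinds was not tested. Of all 12065 genes tested in it, 82.8% were called between Tg16+PERKi and Tg16, and the median log2 change was 0.04. Proteasome genes were higher in 24 of 31 and lower in 5 (median 0.99), respiratory chain genes higher in 31 of 40 and lower in 5 (median 0.96), and ER-associated degradation genes higher in 15 of 25 and lower in 8 (median 0.44). Genes of translocation and N-glycosylation were higher in 22 of 34 and lower in 8, with a median of 0.49. ATF4 and CHOP target genes were lower in 37 of 40 (median -2.02), aminoacyl-tRNA synthetase genes of the cytosol in 19 of 23 (median -1.69) and ribosome biogenesis genes in 23 of 27 (median -1.74). Extracellular matrix genes, of which 21 of 33 rose in cytosolic RNA, were lower in 19 of 33 and higher in 12 in polysome RNA, with a median of -0.59. Mitosis genes were higher in 16 of 26 and lower in 8, with a median of 0.33 beside 1.30 in cytosolic RNA.

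Fibroblasts after 1 h of thapsigargin took part in the fit but in no comparison above, and their cytosolic levels are given here as values without a test. Myc averaged 1421 ± 112.8 CPM after 1 h, against 333 ± 42.2 CPM in control (SD, n = 4 each, here and below). Thbs1 averaged 8673 ± 73.1 CPM after 1 h, against 4725 ± 41.2 CPM in control, and Dusp1 147.5 ± 4.48 CPM, against 30.0 ± 0.886 CPM. Among the stress genes, Herpud1 averaged 794 ± 21.0 CPM after 1 h, against 373 ± 16.8 CPM in control, and Hspa5 3065 ± 107.6 CPM, against 1002 ± 74.0 CPM. Ppp1r15b, whose control level was the highest of the conditions, averaged 281 ± 9.69 CPM after 1 h, against 503 ± 38.0 CPM in control.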
